A study of Mus musculus with 10 samples.

Results

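Stromal macrophages of the mouse mammary gland were compared with the CD11b- dendritic cells of the same organ by RNA sequencing across all genes. The comparison used 6 of the 10 libraries of the study: 2 of stromal macrophages, 2 of CD11b-CD103+ dendritic cells and 2 of CD11b-CD103- dendritic cells, and the pair of dendritic cell populations was weighted equally. All mice were adult, female, virgin C57BL/6 mice with no genetic change or treatment given in the labels, and the cells were sorted from the mammary gland and their RNA extracted fresh. The other 4 libraries held ductal macrophages and CD11b+ dendritic cells of the mammary gland. They entered the fit of the spread between replicates, and their levels are given only beside a few genes. The study calls its replicates biological and does not say whether each came from 1 mouse or from a pool. Apart from CD11b and CD103, the sources used here do not name the surface markers of the sort gates.

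Macrophages and conventional dendritic cells are related cells of the innate immune system with different tasks. Tissue macrophages, which depend on the growth factor receptor CSF1R, stay in place, engulf dead cells and debris and digest them in lysosomes. Dendritic cells arise from precursors that depend on the receptor FLT3, and they carry antigen through the lymph to T cells; the CD11b- type, known as cDC1, is specialised in displaying antigen of dead cells to CD8 T cells and in making interleukin 12.

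Total counts were 17998986 to 23093742 in the stromal libraries and 11703066 to 22519191 in the dendritic cell libraries. The share of counts on the mitochondrial genome was 24.8% and 23.1% in the stromal libraries against 2.13% to 6.29% in the dendritic cell libraries. The 2 stromal libraries lay 1.145 apart as a root-mean-square log2 difference over all genes tested, replicates of the CD103+ and CD103- populations 0.752 and 0.868 apart, and a stromal library lay 1.74 to 1.98 from any dendritic cell library. The first principal component, which set the stromal libraries apart from the others, held 89.6% of the variance over the 500 most variable genes, and the second, along which the CD103+ libraries lay on one side of the CD103- libraries, held 4.935%.

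The markers separated the groups as the labels name them. The summed level of 8 macrophage markers was 5894 to 8255 CPM (counts scaled to the library's total) in the stromal libraries and 22.2 to 84.0 CPM in the dendritic cell libraries, and all 8 were called higher. The 7 cDC1 markers summed to 152 to 183 CPM in the stromal libraries and 2395 to 3329 CPM in the dendritic cell libraries, with Clec9a at 0 counts in the stromal libraries, and all 7 were called lower. Of 5 markers of dendritic cells in general all were lower (18.2 to 22.8 CPM in sum against 789 to 1143 CPM). Of 4 markers of CD11b+ dendritic cells all were higher in the stromal libraries (778 to 1032 CPM against 13.7 to 64.2 CPM). Itgam, which encodes CD11b, had 117 and 102 CPM in the stromal libraries and 7.28 to 11.4 CPM in the dendritic cell libraries. Itgae, which encodes CD103, was at 0 counts in the stromal libraries, 158 and 172 CPM in the CD103+ libraries and 9.39 and 3.799 CPM in the CD103- libraries. In the dendritic cells, whose labels name CD11b and CD103, both genes follow the sort by construction. The titles of the stromal libraries name neither marker, so whether those cells were gated on them is not known here. If F4/80, CD11c or CD24 was also part of the gate, the same holds for Adgre1, Itgax and Cd24a.

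Of 15681 genes tested, 3286 were higher in stromal macrophages (21% of genes) and 3177 lower (20.3%), so 41.2% of all genes were called. A gene was called at a Benjamini-Hochberg adjusted p under 0.05 in edgeR's quasi-likelihood test. The log2 difference is the fitted level in stromal macrophages minus the mean of the fitted levels in both dendritic cell populations. Its median over all genes was 0.024. Its error, called standard error (SE) here, is the size of the log2 difference divided by the square root of the test's F statistic. It was derived from the test rather than read from the fit, and it is a poor guide where a group has few or no counts. Fitted differences of more than 4-fold were found in 1237 called genes in the higher and 1458 in the lower direction, and of more than 16-fold in 371 and 639. Where a group had no count the size was set by the fit, so these are not all measured folds. Cd3e, for one, passed 16-fold at a fitted -6.76, with no stromal count and only 0.437 to 1.58 CPM in the dendritic cell libraries. Against each dendritic cell population taken singly, 1911 genes were called higher in both comparisons (12.2%) and 2137 lower in both (13.6%). The first count fell by more than 1.5 times without stromal replicate 1 or without either CD103+ library. It rose without stromal replicate 2 and fell by less than 1.5 times when any other library was left out. For the same count a fit of the 6 libraries alone gave 1323 and a test against a 2-fold change 744. Both stromal libraries lay above all 4 dendritic cell libraries in 27.7% of genes and below all 4 in 27.5%. In sorted populations sequenced in bulk, fewer cells of a type and less RNA per cell cannot be told apart.

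**Figure D1:**
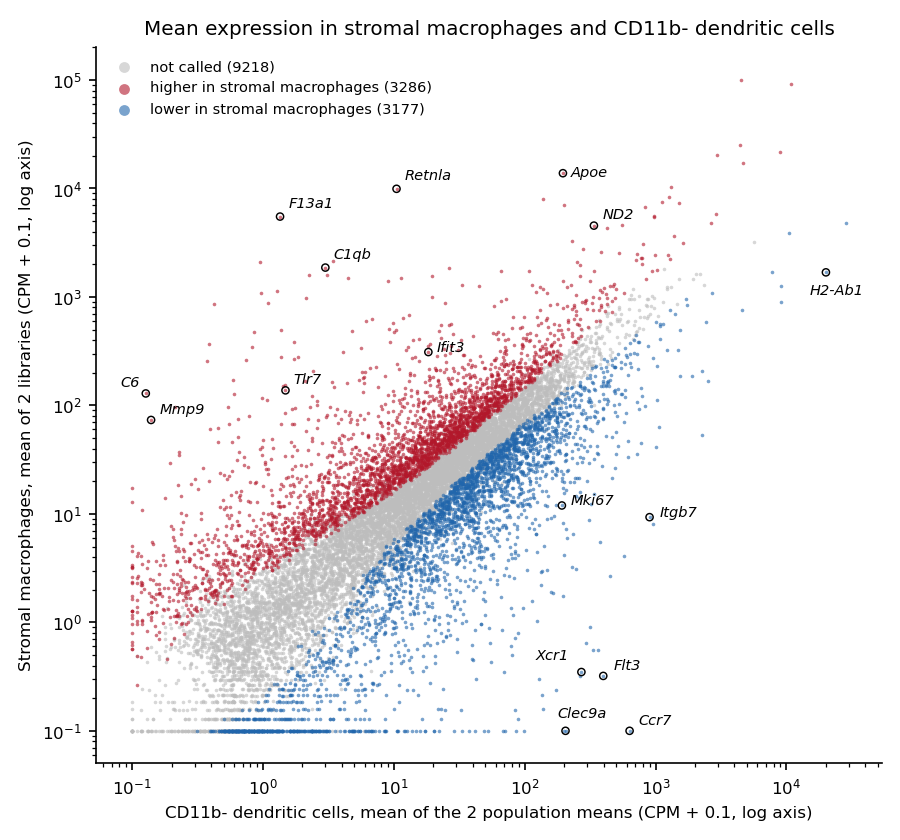
Mean level of each of the 15681 genes tested, in CPM plus 0.1 on log axes, in stromal macrophages (vertical axis, mean of 2 libraries) against CD11b- dendritic cells (horizontal axis, mean of the 2 population means). Red genes (3286) were called higher and blue genes (3177) lower in stromal macrophages; genes along the lower edge had no count in either stromal library, among them Ccr7 and Clec9a.

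Among the genes with the largest differences above 30 CPM, F13a1, the A chain of coagulation factor XIII, a transglutaminase that crosslinks fibrin and matrix (chromosome 13, 36867178 to 37050244), had 6258 and 4756 CPM in the stromal libraries, 2.78 and 0.633 CPM in the CD103+ libraries and 0.276 and 1.31 CPM in the CD103- libraries (log2 difference 12.14 ± 0.61, adjusted p = 2.47e-07). The CD11b+ dendritic cells had 780 CPM of F13a1 on average and the ductal macrophages 2.86 CPM. C6, a component of the membrane attack complex of complement (chromosome 15, 4727067 to 4804045), had 151 and 107 CPM in the stromal libraries and 2 counts in all in the dendritic cell libraries, a ratio of 5628, 95% interval 1557 to 46486 for counting error only (adjusted p = 2.08e-07). Genes of this ranking were taken only where the groups did not overlap, which on the higher side held for 27.7% of all genes.

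Cd209f and Cd209g, lectins of the DC-SIGN family that lie side by side (chromosome 8, 4102784 to 4105838 and chromosome 8, 4134246 to 4137707), were both among the highest. Cd209f had 2284 and 1873 CPM in the stromal libraries and 0.207 to 1.55 CPM in the dendritic cell libraries (log2 difference 11.68 ± 0.30, adjusted p = 9e-09). Cd209g had 981 and 733 CPM against 0 to 0.633 CPM (log2 difference 11.64 ± 0.55, adjusted p = 2.01e-07). Despite the family's name, these members were not dendritic cell transcripts here: they had 2.34 and 0.338 CPM on average in the CD11b+ dendritic cells too, and 1.098 and 0.378 CPM in the ductal macrophages. The family's copies are alike in sequence, so reads may have been split between them. Mmp9, a gelatinase that cuts collagen IV (chromosome 2, 164940326 to 164955850), had 71.04 and 75.6 CPM against 0 to 0.119 CPM (log2 difference 11.42 ± 0.64, adjusted p = 1.02e-06). It had 4 dendritic cell counts in all and none in the CD103- libraries, and against CD103+ cells alone its log2 difference was 9.71.

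The other genes of the highest 15 were 4 chemokines, Ccl24, Ccl8, Ccl12 and Pf4, together with Fcna, a ficolin of the lectin pathway of complement, Retnla, a secreted protein of alternatively activated macrophages, Siglec1, the sialic acid receptor CD169, Fcrls, a scavenger receptor of the Fc receptor-like family, Folr2, the folate receptor beta, and Ms4a14. Retnla had 12386 and 7475 CPM in the stromal libraries and 4.84 to 15.4 CPM in the dendritic cell libraries (log2 difference 9.96 ± 0.50, adjusted p = 2.47e-07), but 21359 CPM in the CD11b+ dendritic cells. Fcrls showed the same layout, with 542 and 417 CPM against 0 to 2.06 CPM and 2713 CPM in the CD11b+ dendritic cells. Folr2 had 2005 and 1150.5 CPM against 0.995 to 3.18 CPM, with 5.43 CPM in the CD11b+ dendritic cells and 1.91 CPM in the ductal macrophages.

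In the other direction, 10 of the 15 genes had no count in either stromal library. Their folds are given as bounds, computed against 3 counts over the 2 stromal libraries (0.0847 CPM). Ccr7, the receptor that steers dendritic cells along lymph vessels to lymph nodes (chromosome 11, 99144199 to 99155077), had 668 and 1235 CPM in the CD103+ libraries and 319 and 309 CPM in the CD103- libraries, at least 7473-fold more than in stromal macrophages (adjusted p = 4.39e-07). Clec9a, a receptor for actin exposed on dead cells (chromosome 6, 129408862 to 129424764), had 196 and 269.6 CPM and 159.8 and 194 CPM, at least 2419-fold more (adjusted p = 4e-07). Il12b, the p40 chain shared by interleukins 12 and 23 (chromosome 11, 44400063 to 44414677), had 212 and 394 CPM and 91.6 and 97.9 CPM, at least 2348-fold more (adjusted p = 5.19e-06). Both CD103+ libraries lay above both CD103- libraries in each of these 3 genes, although none was called between the populations (adjusted p = 0.245, 0.904 and 0.421).

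The remaining genes without a stromal count were Cd8a (bound 837-fold), Ly75, which encodes the antigen uptake receptor DEC-205 (807-fold), the receptors Gpr141 (623-fold) and Adgrg5 (443-fold), Treml4 (387-fold), Apol7c (573-fold) and Itgae (1013-fold, a gene of the sort). Klrb1b, a lectin-like receptor known from natural killer cells, had 1 stromal count against 7810 in the dendritic cell libraries (ratio 3179.9, 95% interval 571 to 125616). Sema4f, a transmembrane semaphorin, had 2 against 11832 (ratio 2409, 95% interval 667 to 19892), and the sorting nexin Snx22 had 2 against 7046 (ratio 1434, 95% interval 397 to 11847). Flt3, the receptor on which dendritic cell development depends (chromosome 5, 147330741 to 147400489), had 0.442 and 0 CPM in the stromal libraries, 314 and 520.2 CPM in the CD103+ libraries and 416 and 342 CPM in the CD103- libraries (log2 difference -10.74 ± 0.67, adjusted p = 9.77e-07). Septin3, a cytoskeletal GTP-binding protein, had 0.442 and 0 CPM against 208 to 352 CPM.

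**Figure D2:**
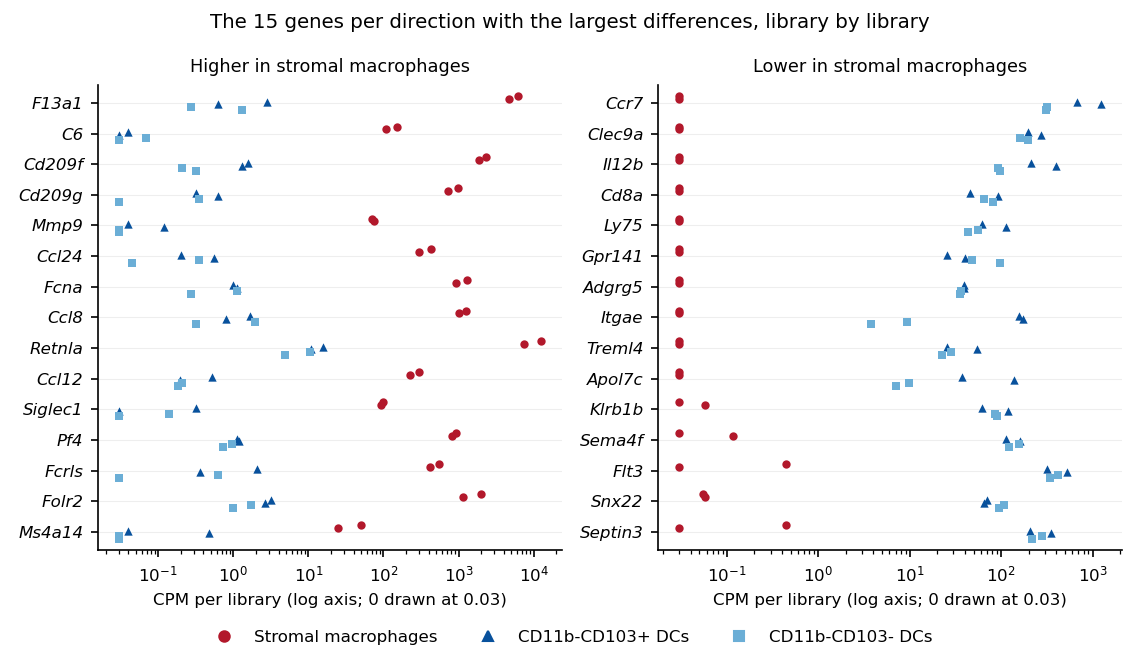
Level of each of the 15 genes per direction in every library, in CPM on a log axis, with values of 0 drawn at 0.03. Stromal libraries are red circles, CD103+ libraries dark blue triangles and CD103- libraries light blue squares. Genes were chosen only where the stromal libraries did not overlap the others. Among the lower genes Itgae and Apol7c are those in which the dendritic cell populations stand farthest apart.

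Gene lists by role were counted next, with the all-gene shares of 21% higher and 20.3% lower as the background. The lists and their members were chosen with earlier results of these data known, so their counts are no independent test. A gene can be in more than one list (Cd163 counts under the macrophage, perivascular, scavenger and iron lists). Setting genes without a stromal or a dendritic cell count at their bounds changed no list's median, which a few members at the far end of a list can hardly move. The lists that leaned most were those of perivascular macrophages (all 23 tested members higher), the mitochondrial genome (all 13 higher), macrophage identity (21 of 24 higher), complement and Fc receptors (20 of 23 higher), cDC1 identity (27 of 29 lower), dendritic cell identity (17 of 18 lower) and cell cycle (23 of 27 lower).

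**Figure D3:**
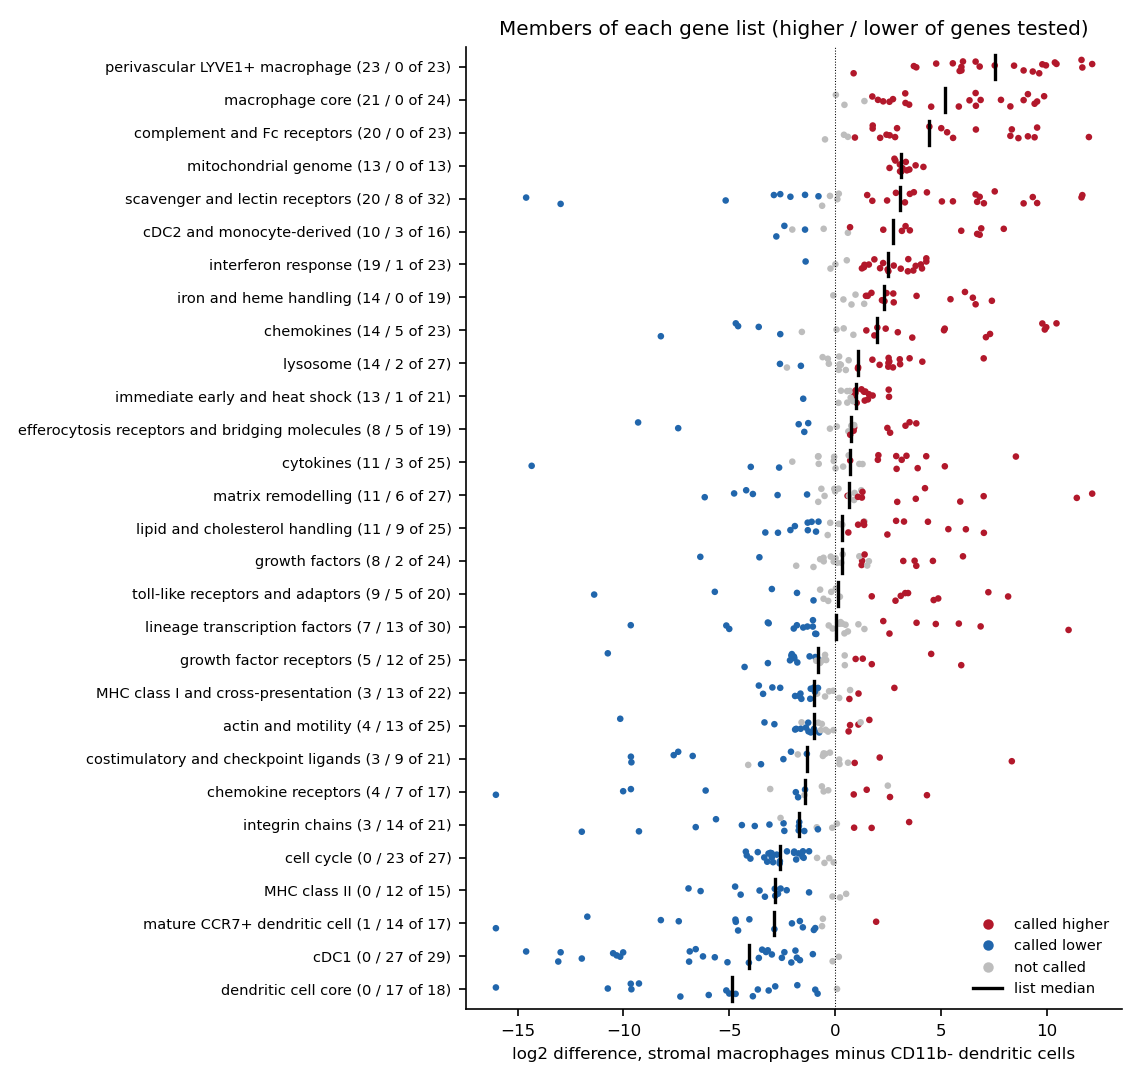
Log2 difference of every tested member of the 29 gene lists, stromal macrophages minus CD11b- dendritic cells. Red points were called higher, blue points lower and grey points were not called; black bars are list medians, from 7.54 for the perivascular macrophage list to -4.85 for the dendritic cell list, and the numbers beside each name are members higher and lower of those tested.

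Among 24 macrophage identity genes, 21 were higher, none was lower, and the median log2 difference was 5.19. The 3 members not called were Cd14, Cebpa and Nr1h3 (log2 differences 0.04, 0.44 and 1.39). C1qa, C1qb and C1qc encode the chains of the complement component C1q and lie next to each other. C1qb (chromosome 4, 136880126 to 136886200) had 2184 and 1546 CPM in the stromal libraries and 1.18 to 4.57 CPM in the dendritic cell libraries (log2 difference 9.54 ± 0.36, adjusted p = 5.14e-08). C1qa had 1874 and 1329 CPM against 1.54 to 5.002 CPM (log2 difference 9.11 ± 0.47, adjusted p = 2.72e-07). C1qc had 2448 and 1834 CPM against 1.9 to 6.03 CPM (log2 difference 9.42 ± 0.42, adjusted p = 1.37e-07). The ductal macrophages had more of each, with 4119 CPM of C1qb. Csf1r, the receptor for macrophage colony-stimulating factor, had 614 and 359 CPM against 42.6 and 16.03 CPM in the CD103+ and 19.1 and 10.8 CPM in the CD103- libraries (log2 difference 4.54 ± 0.39, adjusted p = 8.97e-06), so its transcript was lower but present in the dendritic cells. Adgre1, which encodes F4/80, had 386 and 231 CPM against 1.49 to 5.07 CPM. Cd14, the lipopolysaccharide co-receptor usually taken as a marker of monocytes and macrophages, had 894 and 763 CPM in the stromal libraries, 751 and 1503 CPM in the CD103+ and 775 and 383 CPM in the CD103- libraries, and the groups overlapped (log2 difference 0.04 ± 0.35, adjusted p = 0.946).

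Among 18 dendritic cell identity genes, 17 were lower and the median log2 difference was -4.85; the kynurenine monooxygenase gene Kmo was not called (log2 difference 0.09). Btla, an inhibitory receptor of the CD28 family, had 0 and 0.924 CPM in the stromal libraries and 284 to 462 CPM in the dendritic cell libraries (log2 difference -9.62 ± 0.93, adjusted p = 1.97e-05). All its stromal counts were in replicate 2, and without that library the fitted difference was -15.42. No stromal count was then left, so that value is not a measured fold. Itgax, which encodes CD11c, had 0.166 and 0.231 CPM against 91.8 to 162 CPM (log2 difference -9.26 ± 0.47, adjusted p = 2.57e-07), although it had 729 CPM in the ductal macrophages. Of 29 cDC1 genes, 27 were lower (median -4.07), and Nfil3 and Cd36 were not called (log2 differences -0.12 and 0.18). Xcr1, the receptor for a chemokine of CD8 T cells and natural killer cells (chromosome 9, 123852315 to 123862029), had 0.497 and 0 CPM against 223 and 378 CPM in the CD103+ and 225 and 258 CPM in the CD103- libraries (log2 difference -10.01 ± 0.77, adjusted p = 4.19e-06). Of 16 genes that mark CD11b+ and monocyte-derived dendritic cells, 10 were higher and 3 lower in the stromal macrophages, led by the lectins Clec4a3 (384 and 174 against 0.318 to 4.07 CPM), Clec4a1, Clec10a and Mgl2. Mgl2, a galactose-binding lectin, had 762 and 611 CPM in the stromal libraries, 25.3 and 22.7 CPM in the CD103+ libraries and 2.28 and 1.36 CPM in the CD103- libraries (log2 difference 6.71 ± 0.25, adjusted p = 5.14e-08).

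Genes of mature, migrating dendritic cells followed Ccr7: 14 of 17 were lower, with a median of -2.87, and 1 was higher. Ccl22, a ligand of CCR4 on regulatory T cells, had 1.601 and 0 CPM in the stromal libraries, 282 and 748 CPM in the CD103+ and 124 and 111 CPM in the CD103- libraries (log2 difference -8.23 ± 0.96, adjusted p = 7.1e-05). Its stromal counts were all in replicate 1, without which the fitted difference was -14.85, a value set by the fit to no stromal count. Fscn1, the actin bundler fascin of dendrites, had 16.7 and 22.6 CPM against 149 and 631 CPM and 71.6 and 33.97 CPM (log2 difference -2.87 ± 0.57, adjusted p = 0.0024). In Ccr7, Ccl22, Fscn1, Ccl5 and Apol7c alike, CD103+ replicate 2 was the highest of the 6 libraries. The member that was higher in stromal macrophages, Marcksl1, a substrate of protein kinase C, had 919.6 and 759 CPM against 135 to 439 CPM (log2 difference 1.94 ± 0.28, adjusted p = 0.000326).

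The perivascular macrophage list, which holds genes of macrophages that carry the hyaluronan receptor LYVE1 and lie along vessels, was higher in all 23 members (median 7.54). Lyve1 itself had 537 and 604 CPM in the stromal libraries and 3.12 to 16.2 CPM in the dendritic cell libraries (log2 difference 5.97 ± 0.39, adjusted p = 1.41e-06), with 0.984 CPM in the ductal macrophages. Mrc1, the mannose receptor CD206, had 1190.4 and 777 CPM against 1.46 to 2.46 CPM (log2 difference 8.91 ± 0.33, adjusted p = 5.14e-08). It was not particular to stromal macrophages, with 588 CPM on average in the CD11b+ dendritic cells and 52.0 CPM in the ductal macrophages. Cd163, the receptor for haemoglobin bound to haptoglobin, had 656 and 532 CPM against 4.95 to 7.53 CPM (log2 difference 6.64 ± 0.25, adjusted p = 5.14e-08). The smallest difference of the list was that of Timd4, a phosphatidylserine receptor: it had 208 and 197 CPM in the stromal libraries, 127 and 202 CPM in the CD103+ and 78.1 and 69.6 CPM in the CD103- libraries. The groups overlapped, and the call (log2 difference 0.88 ± 0.24, adjusted p = 0.0152) was lost without stromal replicate 1 (adjusted p = 0.0806). A site of MAF factors was searched as TGCTGAC on either strand in the 250 bases before a transcript start. It was present in 3 of the 18 list genes with a promoter in the RefSeq table (Fcna, Retnla and Timd4). Of all 11766 genes with a promoter, 3.78% had it. The MAF site did not stand out among the elements searched in this list. A site of AP-1 factors was present in 4 of the 18 genes, against 5.98% of all genes. A composite element of ETS and IRF factors was present in 3 of the 18, against 2.48% of all genes. The core of the interferon response element was present in 1 of the 18 and the X box of class II genes in 0.

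Of 32 scavenger and lectin receptors, 20 were higher and 8 lower, with a median of 3.09; the lower side was led by Clec9a and Ly75 and the higher side by Cd209f, Cd209g and Cd209b. Msr1, the scavenger receptor A, had 142 and 93.7 CPM against 0.483 to 1.09 CPM (log2 difference 7.03 ± 0.29, adjusted p = 6.91e-08). Of 23 complement and Fc receptor genes, 20 were higher, none lower, and the median was 4.45. Fcgr1, the high-affinity receptor for immunoglobulin G, had 131 and 123 CPM against 0 to 1.15 CPM (log2 difference 8.28 ± 0.41, adjusted p = 2.47e-07). Vsig4, a receptor for C3 fragments that also restrains T cells, had 35.05 and 24.2 CPM against 0 to 0.238 CPM (log2 difference 8.35 ± 0.82, adjusted p = 6.65e-05). DESeq2's Wald test did not call it (adjusted p = 0.0669).

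Of 19 genes for the recognition of dying cells, 8 were higher and 5 lower (median 0.76), and without stromal replicate 1 the count of higher genes was 5. Gas6 and Pros1 encode secreted proteins that bridge dying cells to receptor tyrosine kinases. Gas6 had 959 and 865 CPM in the stromal libraries and 32.4 to 111 CPM in the dendritic cell libraries (log2 difference 3.84 ± 0.46, adjusted p = 8.94e-05). Pros1 had 266 and 203 CPM against 29.4 to 47.4 CPM (log2 difference 2.60 ± 0.20, adjusted p = 4.23e-06). Their receptor Mertk had 51.2 and 25.4 CPM against 1.49 to 6.39 CPM (log2 difference 3.33 ± 0.48, adjusted p = 0.000308). Havcr2, which encodes TIM-3, ran the other way, with 2.93 and 2.25 CPM in the stromal libraries, 443 and 648 CPM in the CD103+ and 352 and 364 CPM in the CD103- libraries (log2 difference -7.41 ± 0.41, adjusted p = 4.48e-07). The bridging ligands and their receptor were thus higher, and of the TIM receptor genes Havcr1 and Havcr2 were lower while the groups overlapped in Timd4.

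Of 15 MHC class II genes, 12 were lower, none was higher, and the median was -2.83. Without stromal replicate 2, 1 member was higher. H2-Ab1, a class II beta chain (chromosome 17, 34263227 to 34269418), had 2239 and 1132 CPM in the stromal libraries, 15196 and 27421 CPM in the CD103+ libraries and 21247 and 16231 CPM in the CD103- libraries (log2 difference -3.57 ± 0.47, adjusted p = 0.000174). In the ductal macrophages it had 47450.5 CPM. The invariant chain gene Cd74 had 6302 and 3288 CPM against 22067 to 40531 CPM (log2 difference -2.57 ± 0.46, adjusted p = 0.00131). Transcripts of both genes were lower but not absent in the stromal macrophages.

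The largest differences of the list were those of H2-Oa and H2-Ob, the chains of an inhibitor of peptide loading. H2-Ob had 3.09 and 2.89 CPM in the stromal libraries and 194 to 331 CPM in the dendritic cell libraries (log2 difference -6.35 ± 0.34, adjusted p = 3.59e-07). H2-Oa had 1.32 and 0.0577 CPM against 61.8 to 129 CPM (log2 difference -6.92 ± 0.65, adjusted p = 1.53e-05). For H2-Oa the fitted difference was -10.42 without stromal replicate 1. Ciita, the coactivator that switches class II genes on, had 26.7 and 22.8 CPM against 149 to 206 CPM (log2 difference -2.83 ± 0.21, adjusted p = 3.31e-06). Rfx5 and Rfxank, which encode parts of the complex that binds the X box of class II promoters, were not called (log2 differences -0.12 and 0.23), and the third part, Rfxap, was lower.

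The X box is the element of class II promoters to which that complex binds. Its core was searched as AGNAAC directly followed by NGATG (N is any base), on either strand, in the 250 bases before each transcript start in RefSeq's promoter table (GRCm38.p6, 14899 windows for 11766 of the genes tested, so a gene can have several). It was present in 25 of those genes (0.212%) and in 3 of the 11 class II genes with a promoter (27.3%). The stretches of those 3 genes, all called lower, are given 5′ to 3′ on the gene's strand with the match in capitals, because they show where the letters of the element lie. Binding was not measured.
H2-Eb1 (chr17:34305735-34305825, + strand): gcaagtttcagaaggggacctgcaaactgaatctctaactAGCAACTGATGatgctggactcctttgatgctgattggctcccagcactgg
H2-Eb2 (chr17:34325502-34325592, + strand): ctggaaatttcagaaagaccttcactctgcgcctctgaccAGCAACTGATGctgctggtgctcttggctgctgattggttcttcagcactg
H2-DMb1 (chr17:34153056-34153146, + strand): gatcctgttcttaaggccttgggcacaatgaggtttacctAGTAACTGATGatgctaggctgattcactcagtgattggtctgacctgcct
The class II beta chain gene H2-Eb1 had 1175 and 632 CPM in the stromal libraries and 6771 to 12270.2 CPM in the dendritic cell libraries (log2 difference -3.31 ± 0.41, adjusted p = 0.000102). Its weakly expressed relative H2-Eb2 had 0.938 and 0.577 CPM against 14.2 to 29.97 CPM (log2 difference -4.72 ± 0.44, adjusted p = 1.49e-05). H2-DMb1, a chain of the peptide exchange factor H2-DM, had 138 and 101 CPM against 385 to 789.7 CPM (log2 difference -2.29 ± 0.33, adjusted p = 0.000293). The 3 matches begin 92, 133 and 95 bases before the table's transcript start in that order, which for H2-Eb2 lies inside the annotated gene. That the letters are missing from other windows says nothing about the factor. H2 genes are alike in sequence, so reads may have been split between them.

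Of 22 genes for MHC class I and cross-presentation, 13 were lower and 3 higher (median -0.98), and fewer were lower without stromal replicate 2. Tap1 and Tap2 form the pump that carries peptides to class I. Tap1 had 30.6 and 33.7 CPM in the stromal libraries against 281 to 406 CPM (log2 difference -3.40 ± 0.27, adjusted p = 4.71e-06). Tap2 had 27.98 and 39.1 CPM against 227 to 315 CPM (log2 difference -2.96 ± 0.26, adjusted p = 8.49e-06). Rab43, a small GTPase needed for cross-presentation by cDC1, had 41.7 and 42.4 CPM against 442 to 613 CPM (log2 difference -3.60 ± 0.24, adjusted p = 1.43e-06). Cybb, the catalytic chain of the phagocyte NADPH oxidase, was higher, with 352 and 170.4 CPM against 44.3 and 17.5 CPM and 24.03 and 66.8 CPM (log2 difference 2.80 ± 0.46, adjusted p = 0.00072). The class I heavy chain gene H2-K1 differed less, with 907 and 767 CPM against 1243 to 2599 CPM (log2 difference -0.999 ± 0.26, adjusted p = 0.0112), and was not called without stromal replicate 2 (adjusted p = 0.0750).

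Of 21 costimulatory and checkpoint genes, 9 were lower and 3 higher (median -1.33). Cd244a, a receptor of the SLAM family, had 0 and 0.808 CPM in the stromal libraries and 70.5 to 94.03 CPM in the dendritic cell libraries (log2 difference -7.62 ± 0.64, adjusted p = 7.21e-06). All its stromal counts were in replicate 2, without which the fitted difference was -13.23, a value set by the fit to no stromal count. Icosl, the ligand of the T cell receptor ICOS, had 19.8 and 14.5 CPM against 145 to 273 CPM (log2 difference -3.50 ± 0.29, adjusted p = 6.75e-06). Cd274, which encodes PD-L1, had 10.9 and 13.1 CPM against 46.1 to 100.05 CPM (log2 difference -2.44 ± 0.33, adjusted p = 0.000185). Pdcd1lg2, which encodes PD-L2, had no stromal count and 4.76 to 10.8 CPM in the dendritic cell libraries, at least 79.6-fold more (adjusted p = 0.000167). Cd80 was lower (log2 difference -2.08 ± 0.28, adjusted p = 0.000196), and so was Cd86 (log2 difference -1.33 ± 0.31, adjusted p = 0.00572). The call of Cd86 was lost without stromal replicate 2 (adjusted p = 0.0505).

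**Figure D4:**
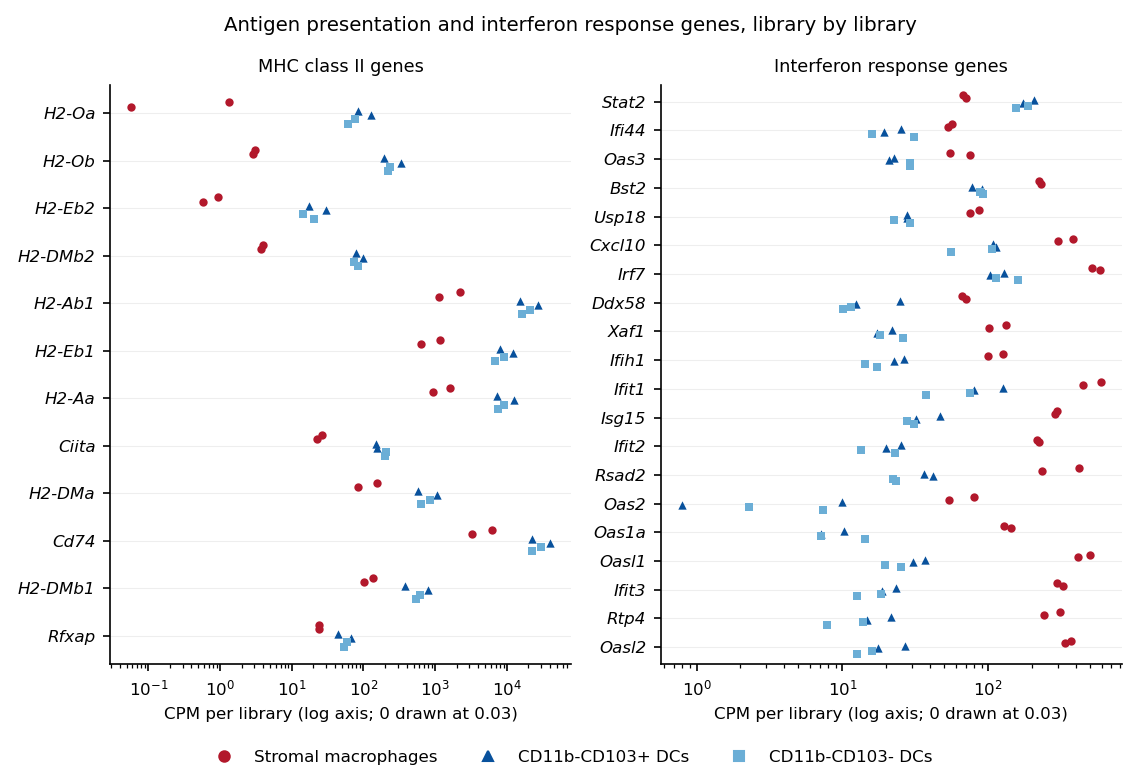
Level of each called MHC class II gene (left) and interferon response gene (right) in every library, in CPM on log axes, ordered by the log2 difference. Stromal libraries (red circles) lie below all dendritic cell libraries in the 12 class II genes called lower, and above them in the 19 interferon response genes called higher.

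Interferon response genes were higher: 19 of 23, with a median of 2.48, against 1 lower. Oasl2 and Oasl1 belong to the oligoadenylate synthetase family of antiviral proteins. Oasl2 had 371 and 336 CPM in the stromal libraries and 12.6 to 26.8 CPM in the dendritic cell libraries (log2 difference 4.31 ± 0.22, adjusted p = 2.93e-07). Oasl1 had 496 and 414 CPM against 19.7 to 36.9 CPM (log2 difference 4.05 ± 0.32, adjusted p = 4.74e-06). Ifit3, an interferon-induced protein with tetratricopeptide repeats (chromosome 19, 34583119 to 34588982), had 295 and 325 CPM in the stromal libraries, 23.3 and 18.8 CPM in the CD103+ and 18.4 and 12.6 CPM in the CD103- libraries (log2 difference 4.11 ± 0.20, adjusted p = 2.47e-07). Rtp4 had 313 and 241 CPM against 7.87 to 21.4 CPM (log2 difference 4.31 ± 0.28, adjusted p = 1.24e-06). The lower member was Stat2, a transcription factor downstream of the type I interferon receptor, with 66.9 and 70.4 CPM against 154 to 204 CPM (log2 difference -1.39 ± 0.23, adjusted p = 0.000667).

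The core of the interferon response element, searched as GAAA, 2 bases of any kind and GAAA on either strand of the same 250 bases, was present in 401 of 11766 promoters (3.41%) and in 9 of the 17 interferon list genes that had a promoter in the table (52.9%). Stat2 held it too, so it was present in 8 of the 16 higher genes with a promoter. It can overlap the related core that begins with GGAA in place of the first GAAA, which was present in 2 of the 17 and in 2.48% of all genes with a promoter. Stretches of 4 higher genes are given 5′ to 3′ on the gene's strand with each match in capitals, because they show how the element recurs in this list.
Ifit1 (chr19:34640764-34640853, + strand): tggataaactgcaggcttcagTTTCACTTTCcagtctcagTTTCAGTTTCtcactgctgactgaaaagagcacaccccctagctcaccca
Ifit3 (chr19:34583367-34583456, + strand): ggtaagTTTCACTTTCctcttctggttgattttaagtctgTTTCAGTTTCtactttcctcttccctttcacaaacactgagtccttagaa
Isg15 (chr4:156200835-156200924, - strand): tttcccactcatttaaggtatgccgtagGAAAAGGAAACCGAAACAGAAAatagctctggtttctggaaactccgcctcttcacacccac
Rsad2 (chr12:26456523-26456612, - strand): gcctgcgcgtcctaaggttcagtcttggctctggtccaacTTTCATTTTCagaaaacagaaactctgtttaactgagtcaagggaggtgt
Ifit1 had 594 and 445 CPM in the stromal libraries and 37.4 to 127 CPM in the dendritic cell libraries (log2 difference 2.77 ± 0.31, adjusted p = 5.26e-05). Isg15, a ubiquitin-like modifier, had 297 and 288 CPM against 27.5 to 46.96 CPM (log2 difference 3.10 ± 0.21, adjusted p = 1.76e-06). Rsad2, which encodes the antiviral enzyme viperin, had 418 and 235 CPM against 22.3 to 41.6 CPM (log2 difference 3.46 ± 0.29, adjusted p = 7.92e-06). The transcript start behind the Ifit3 stretch lies inside the annotated gene. In these 3 genes and in Ifit3 both stromal libraries lay above all dendritic cell libraries. The number of copies shown (2 in Ifit1 and Ifit3, 3 in Isg15, 1 in Rsad2) describes the letters and was not compared with the size of the difference.

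Of 25 cytokine genes, 11 were higher and 3 lower, with a median of 0.71, and 5 were lower without stromal replicate 2. Ifnb1, the gene of interferon beta, was among those higher, with 18.8 and 8.77 CPM in the stromal libraries, 0.0397 and 0.277 CPM in the CD103+ and 0 and 0 CPM in the CD103- libraries (log2 difference 8.54 ± 1.01, adjusted p = 0.000125). It had 8 dendritic cell counts in all, and against CD103+ cells alone its log2 difference was 6.37. Osm, which encodes oncostatin M, a cytokine of the interleukin 6 family, had 82.02 and 69.3 CPM against 1.87 to 5.11 CPM (log2 difference 4.31 ± 0.31, adjusted p = 2.36e-06). The interleukin 1 pair split: the cytokine gene Il1b was lower, with 11.4 and 17.8 CPM in the stromal libraries, 365 and 288 CPM in the CD103+ and 137 and 189.5 CPM in the CD103- libraries (log2 difference -3.98 ± 0.40, adjusted p = 2.66e-05). The antagonist gene Il1rn was higher, with 78.5 and 59.2 CPM against 22.5 and 7.01 CPM and 2.14 and 3.75 CPM (log2 difference 3.37 ± 0.39, adjusted p = 6.75e-05). Il10, an anti-inflammatory cytokine gene, had 88.6 and 67.1 CPM against 6.71 to 15.4 CPM (log2 difference 2.91 ± 0.32, adjusted p = 4.45e-05). Tnf, a pro-inflammatory one, was higher as well, with 136 and 76.8 CPM against 8.59 to 21.95 CPM (log2 difference 2.89 ± 0.36, adjusted p = 0.000103).

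Of 23 chemokine ligand genes, 14 were higher and 5 lower (median 2.00), and more were lower without stromal replicate 2. The highest differences were those of Ccl24, Ccl8 and Ccl12. Ccl24, a ligand of CCR3 on eosinophils, had 435 and 298 CPM against 0.0452 to 0.554 CPM (log2 difference 10.46 ± 0.47, adjusted p = 1.32e-07). Ccl8 had 1265 and 1024 CPM against 0.317 to 1.93 CPM (log2 difference 9.98 ± 0.59, adjusted p = 6.26e-07). Ccl12, a ligand of CCR2, had 294 and 224 CPM against 0.181 to 0.516 CPM (log2 difference 9.91 ± 0.39, adjusted p = 6.39e-08). Ccl12 and Ccl8 are neighbours on chromosome 11 (Ccl12 chromosome 11, 82101845 to 82103399; Ccl8 chromosome 11, 82115185 to 82116799). Both attractants of monocytes followed: Ccl2 had 1059 and 713 CPM against 17.2 to 27.96 CPM (log2 difference 5.18 ± 0.27, adjusted p = 2.66e-07). Ccl7 had 1708 and 1263 CPM against 7.598 to 18.1 CPM (log2 difference 7.13 ± 0.35, adjusted p = 2.47e-07). Pf4, known from platelets as CXCL4, had 937 and 808 CPM against 0.724 to 1.19 CPM (log2 difference 9.79 ± 0.33, adjusted p = 5.14e-08).

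The ligands lower in stromal macrophages were Ccl22, Ccl5, Ccl17, Cxcl9 and Cxcl16, all of which attract T cells. Ccl5 had 3.31 and 4.91 CPM in the stromal libraries, 122 and 622 CPM in the CD103+ and 37.5 and 23.2 CPM in the CD103- libraries (log2 difference -4.69 ± 0.74, adjusted p = 0.000531). Cxcl9, a ligand of CXCR3, had 7.51 and 15.99 CPM against 101 to 223 CPM (log2 difference -3.61 ± 0.43, adjusted p = 7.97e-05). Cxcl10, which binds the same receptor, was higher, with 378 and 303 CPM against 55.5 to 113 CPM (log2 difference 1.86 ± 0.31, adjusted p = 0.000777). Ligands of one receptor could thus differ in direction. Of 17 chemokine receptors, 7 were lower and 4 higher (median -1.42), and 2 were higher without stromal replicate 1. Ccr1, a receptor for inflammatory chemokines, had 219 and 118 CPM in the stromal libraries, 34.3 and 11.3 CPM in the CD103+ and 1.795 and 4.12 CPM in the CD103- libraries (log2 difference 4.34 ± 0.43, adjusted p = 2.17e-05). Cxcr3 had 13.96 and 10.6 CPM against 33.9 to 54.9 CPM (log2 difference -1.85 ± 0.35, adjusted p = 0.00165).

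**Figure D5:**
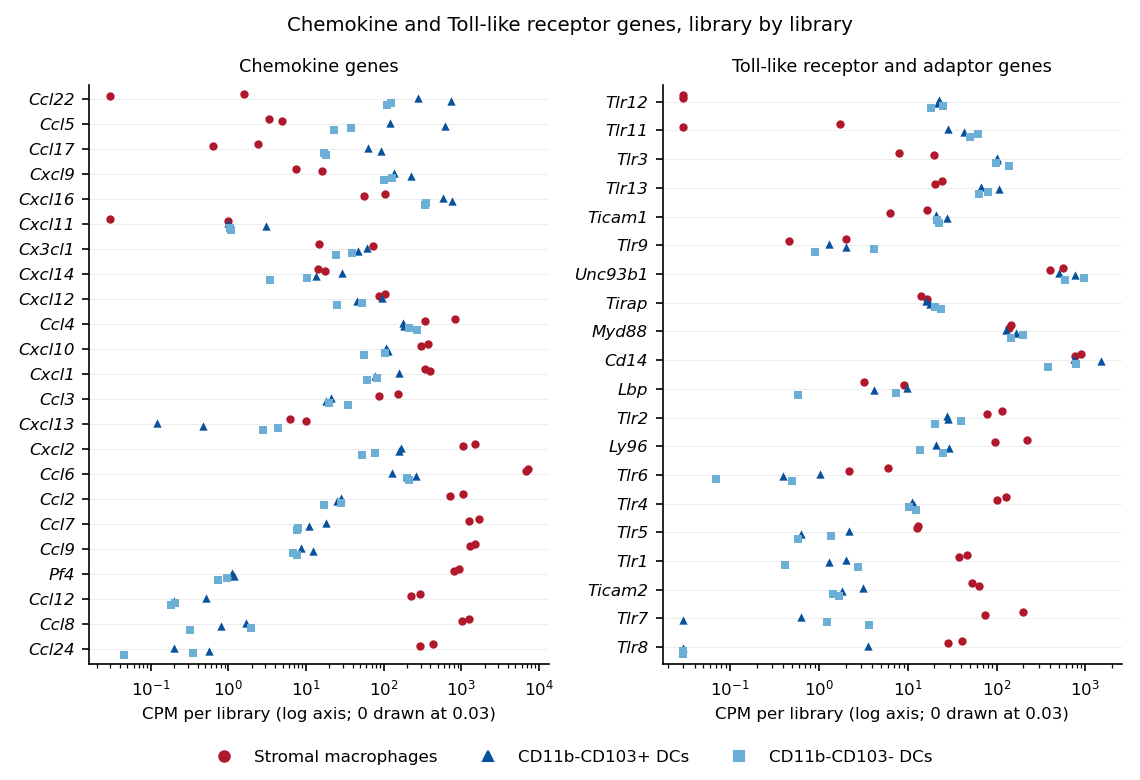
Level of each tested chemokine gene (left) and Toll-like receptor or adaptor gene (right) in every library, in CPM on log axes, with values of 0 drawn at 0.03 and genes ordered by the log2 difference. Of the chemokines 14 were called higher and 5 lower in stromal macrophages (red circles), and of the receptors and adaptors 9 higher and 5 lower.

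Toll-like receptors, sensors of microbial molecules, divided between the cells: of 20 receptors and adaptors, 9 were higher, 5 lower, and the median was 0.13. Tlr7, a sensor of single-stranded RNA, had 200.1 and 74.99 CPM in the stromal libraries, 0.635 and 0 CPM in the CD103+ and 1.24 and 3.66 CPM in the CD103- libraries (log2 difference 7.24 ± 0.64, adjusted p = 1.02e-05). Tlr8 lies beside it on the X chromosome and had 41.2 and 28.5 CPM against 3.53 and 0 CPM and 0 and 0 CPM (log2 difference 8.17 ± 1.14, adjusted p = 0.000359). All its dendritic cell counts were in 1 library, and with the 4 dendritic cell libraries fitted as 1 group the log2 difference was 5.18. Tlr4, the lipopolysaccharide receptor, had 127 and 101 CPM against 10.2 to 12.5 CPM (log2 difference 3.31 ± 0.24, adjusted p = 2.53e-06). Ticam2 had 52.3 and 63.7 against 1.45 to 3.14 CPM (log2 difference 4.87 ± 0.31, adjusted p = 1.09e-06).

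The lower members included Tlr3, a sensor of double-stranded RNA, with 8.004 and 19.6 CPM against 99.6 to 137 CPM (log2 difference -2.99 ± 0.38, adjusted p = 0.000136), and Tlr11 and Tlr12, sensors of microbial profilin. Tlr11 had 1.71 and 0 CPM in the stromal libraries and 28.1 to 62.5 CPM in the dendritic cell libraries (log2 difference -5.68 ± 0.88, adjusted p = 0.000504). Its stromal counts were all in replicate 1, without which the fitted difference was -12.40, a value set by the fit to no stromal count. Tlr12 had no stromal count and 18.4 to 24.8 CPM in the dendritic cell libraries, at least 259-fold more (adjusted p = 1.13e-06). The common adaptor Myd88 was not called (log2 difference -0.18).

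Of 30 lineage transcription factors, 13 were lower and 7 higher, and 11 were higher without CD103- replicate 1. Maf, a transcription factor of mature macrophages, had 179 and 127 CPM in the stromal libraries and 0.552 to 2.22 CPM in the dendritic cell libraries (log2 difference 6.88 ± 0.33, adjusted p = 2.29e-07). Zeb2 had 369 and 319 CPM against 9.07 to 17.5 CPM (log2 difference 4.76 ± 0.31, adjusted p = 1.31e-06). Tfec, a factor of the MITF family, had 22.6 and 11.7 CPM in the stromal libraries and no count in any dendritic cell library, at least 497-fold more against 3 counts over those 4 libraries (0.0345 CPM; adjusted p = 1e-05).

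Runx3, a factor of the Runt family, had 2.15 and 3.69 CPM against 92.2 to 115 CPM (log2 difference -5.14 ± 0.30, adjusted p = 6.22e-07). Irf8 and Batf3, the factors on which cDC1 depend, were both lower: Irf8 had 133 and 91.2 CPM against 766 to 1221 CPM (log2 difference -3.18 ± 0.32, adjusted p = 2.67e-05). Batf3 had 28.6 and 20.3 CPM against 41.3 to 56.4 CPM (log2 difference -1.05 ± 0.24, adjusted p = 0.00593). Batf3 was not called without stromal replicate 2 (adjusted p = 0.0513). Zbtb46, a factor of conventional dendritic cells, had 7.62 and 6.75 CPM against 55.9 to 75.8 CPM (log2 difference -3.14 ± 0.33, adjusted p = 3.18e-05). Irf4, known from CD11b+ dendritic cells, was higher, with 28.04 and 34.7 CPM against 2.69 to 13.6 CPM (log2 difference 2.28 ± 0.48, adjusted p = 0.00344). Spi1, which encodes the myeloid factor PU.1, was not called: it had 246 and 206 CPM against 159 to 216 CPM, and the groups overlapped (log2 difference 0.20 ± 0.21, adjusted p = 0.461).

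Receptors for growth factors and cytokines were lower in 12 of 25 cases and higher in 5 (median -0.82). Among the receptors of colony-stimulating factors Csf1r and Csf3r were higher, and Csf2ra, Csf2rb and Csf2rb2 were lower. Csf2rb, the common beta chain of the receptors for GM-CSF and related cytokines, had 24.9 and 46.7 CPM in the stromal libraries, 987 and 794 CPM in the CD103+ and 537 and 542 CPM in the CD103- libraries (log2 difference -4.28 ± 0.33, adjusted p = 4.39e-06). Its near copy Csf2rb2 had 7.01 and 14.6 CPM against 69.9 to 128 CPM (log2 difference -3.17 ± 0.32, adjusted p = 2.72e-05); reads of this pair may have been split. Of 24 growth factor genes, 8 were higher and 2 lower (median 0.33). A single member was lower without stromal replicate 1, CD103+ replicate 1, CD103- replicate 2 or either library of the CD11b+ dendritic cells. Igf1, insulin-like growth factor 1, which acts on the mammary epithelium, had 428 and 254 CPM in the stromal libraries, 8.97 and 5.38 CPM in the CD103+ and 4.35 and 3.17 CPM in the CD103- libraries (log2 difference 6.04 ± 0.33, adjusted p = 3.9e-07). Pdgfc had 101 and 61.8 CPM against 0.678 to 5.399 CPM (log2 difference 4.62 ± 0.51, adjusted p = 4.84e-05). Gdf15 had 118 and 58.3 CPM against 5.38 to 17.3 CPM (log2 difference 3.22 ± 0.47, adjusted p = 0.000347).

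Matrix remodelling genes ran in both directions, 11 of 27 higher and 6 lower (median 0.66). Besides Mmp9 and F13a1, the collagenase gene Mmp13 was higher (log2 difference 4.25 ± 0.65, adjusted p = 0.000438) at only 3.31 and 4.099 CPM, and its fitted difference was 6.58 without CD103+ replicate 1 and 6.39 without CD103- replicate 2. In both of those fits the population that lost a library had no count left. Timp2, an inhibitor of metalloproteinases, had 1111 and 821 CPM against 29.04 to 117 CPM (log2 difference 3.81 ± 0.37, adjusted p = 1.83e-05). Spp1, which encodes osteopontin, was lower, with 5.74 and 2.94 CPM in the stromal libraries, 74.4 and 107 CPM in the CD103+ and 141 and 169 CPM in the CD103- libraries (log2 difference -4.77 ± 0.37, adjusted p = 4.28e-06). So was the sheddase gene Adam8 (32.8 and 20.2 against 326 to 635 CPM). Of 21 integrin chains, 14 were lower and 3 higher (median -1.72). Itgb7, which pairs with CD103, had 7.95 and 10.5 CPM against 562 and 919.8 CPM in the CD103+ and 1308 and 806 CPM in the CD103- libraries (log2 difference -6.58 ± 0.40, adjusted p = 8.4e-07), so both dendritic cell populations carried its transcript. Itgal, which encodes CD11a, had 1.93 and 3.98 CPM against 109 to 208 CPM (log2 difference -5.63 ± 0.46, adjusted p = 5.8e-06).

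Genes for motility and the actin cytoskeleton were lower in 13 of 25 cases and higher in 4 (median -0.99). In a fit of the 6 libraries alone 2 were higher, as with the 4 dendritic cell libraries as 1 group. Cyfip2, a part of the WAVE complex that drives branched actin, had 0.276 and 0 CPM against 108 to 233 CPM (log2 difference -10.15 ± 0.68, adjusted p = 1.55e-06). Lsp1 had 233 and 140.0 CPM against 1313 to 2334 CPM (log2 difference -3.34 ± 0.38, adjusted p = 5.6e-05). Coro1a had 351 and 293 CPM against 799.7 to 1517 CPM (log2 difference -1.89 ± 0.26, adjusted p = 0.000236).

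Lysosomal genes were higher in 14 of 27 cases and lower in 2 (median 1.08), and 4 were lower without stromal replicate 1. The protease gene Ctsd had 2104 and 1382 CPM in the stromal libraries and 55.9 to 182 CPM in the dendritic cell libraries (log2 difference 4.12 ± 0.34, adjusted p = 6.75e-06). Ctsb had 5617 and 3539.9 CPM against 424 to 713 CPM (log2 difference 3.06 ± 0.29, adjusted p = 1.72e-05). Ctsc had 2384 and 1841 CPM against 181 to 319.9 CPM (log2 difference 3.07 ± 0.24, adjusted p = 4.82e-06). Mitf, a transcription factor of lysosomal genes, had 47.1 and 21.9 CPM against 2.002 to 3.96 CPM (log2 difference 3.52 ± 0.30, adjusted p = 8.38e-06). Psap, the precursor of the saposins that help to degrade sphingolipids, went the other way, with 771 and 737 CPM in the stromal libraries and 3503 to 5552 CPM in the dendritic cell libraries (log2 difference -2.60 ± 0.33, adjusted p = 0.000136).

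Of 25 genes for lipid and cholesterol handling, 11 were higher and 9 lower (median 0.34), and fewer were lower without stromal replicate 1. Apoe, the apolipoprotein that takes up cholesterol leaving the cell, had 17898 and 9761 CPM in the stromal libraries, 295 and 181 CPM in the CD103+ and 219.8 and 86.6 CPM in the CD103- libraries (log2 difference 6.18 ± 0.45, adjusted p = 2.95e-06). Pltp, a phospholipid transfer protein, had 1608 and 976 CPM against 10.99 to 45.5 CPM (log2 difference 5.35 ± 0.41, adjusted p = 4.21e-06). The cholesterol exporter Abca1 had 154 and 88.4 CPM against 14.5 to 36.1 CPM (log2 difference 2.47 ± 0.34, adjusted p = 0.000203). The lower members held the cholesterol synthesis genes Srebf2 and Sqle, but also the uptake receptor Scarb1 and the exporter Abcg1. Srebf2, the master factor of cholesterol synthesis, had 35.3 and 36.9 CPM against 271 to 457 CPM (log2 difference -3.30 ± 0.28, adjusted p = 7.22e-06).

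Of 19 genes for iron and heme, 14 were higher and none was lower (median 2.33). The genes trace the path of heme iron: Cd163 takes up haemoglobin, Hmox1 opens the heme ring, ferritin stores iron and the exporter Slc40a1 releases it. Hmox1 had 2365 and 1335 CPM in the stromal libraries, 35.5 and 21.7 CPM in the CD103+ and 28.7 and 19.9 CPM in the CD103- libraries (log2 difference 6.13 ± 0.38, adjusted p = 9.78e-07). Slc40a1, which encodes ferroportin, had 67.4 and 55.2 CPM against 0.276 to 0.554 CPM (log2 difference 7.41 ± 0.33, adjusted p = 1.37e-07). Of the ferritin chains Fth1 had 9364 and 7386 CPM against 987 to 1566 CPM (log2 difference 2.75 ± 0.25, adjusted p = 1.36e-05). Ftl1 had 3199 and 1971 CPM against 336 to 484 CPM (log2 difference 2.77 ± 0.27, adjusted p = 1.93e-05). Both have many pseudogene copies, which could take or lend reads.

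Cell cycle genes were lower in 23 of 27 cases and none was higher (median -2.61). Mki67, a marker of dividing cells, had 7.95 and 15.8 CPM in the stromal libraries, 162 and 160.1 CPM in the CD103+ and 167 and 279 CPM in the CD103- libraries (adjusted p = 1.08e-05). Ccna2, cyclin A2, had 3.81 and 4.68 CPM against 50.9 to 134 CPM (log2 difference -4.22 ± 0.29, adjusted p = 1.94e-06). Rrm2, a subunit of ribonucleotide reductase, had 1.99 and 7.97 CPM against 52.8 to 86.3 CPM (log2 difference -3.65 ± 0.50, adjusted p = 0.000203). Birc5, which encodes survivin, had 3.04 and 8.14 CPM against 36.01 to 90.1 CPM (log2 difference -3.35 ± 0.41, adjusted p = 0.000109). The groups did not overlap in these 4 genes.

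Of 21 immediate early and heat shock genes, which respond within minutes to tissue dissociation as well as to signals, 13 were higher and 1 lower (median 0.98), and 8 were higher without stromal replicate 1. Egr1 had 6389.7 and 4793 CPM in the stromal libraries, 1257 and 946 CPM in the CD103+ and 1146 and 549 CPM in the CD103- libraries (log2 difference 2.53 ± 0.30, adjusted p = 8.25e-05). Atf3 had 2940.1 and 1994 CPM against 586 to 925 CPM (log2 difference 1.78 ± 0.26, adjusted p = 0.000318). Jun had 2497 and 2040.1 CPM against 471 to 1029 CPM (log2 difference 1.55 ± 0.32, adjusted p = 0.00293). Nr4a1, a nuclear receptor of the same early class, was lower, with 159 and 296 CPM against 523 to 738 CPM (log2 difference -1.50 ± 0.36, adjusted p = 0.00689), a call that was lost without stromal replicate 1 (adjusted p = 0.0513).

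All 13 protein genes of the mitochondrial genome were higher (median 3.12). ND2, a subunit of respiratory complex I, had 4427 and 4664 CPM in the stromal libraries, 259.7 and 235 CPM in the CD103+ and 235 and 620.3 CPM in the CD103- libraries (log2 difference 3.80 ± 0.50, adjusted p = 0.00016). COX2 had 2497 and 3002 CPM against 138 to 574 CPM (log2 difference 3.39 ± 0.56, adjusted p = 0.000771), and in both genes CD103- replicate 2 was the highest of the dendritic cell libraries. Copies of mitochondrial sequence in the nuclear genome can take or lend such reads. With the mitochondrial genome left out of the table, 3176 genes were higher and 3241 lower. The share of mitochondrial counts is also a common measure of RNA quality and of stress in sorted cells; its part in the other differences was not tested.

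Transcripts of other cell types of the gland were present in these libraries. Adipocyte markers summed to 245 to 258 CPM in the stromal libraries and 15.6 to 63.1 CPM in the dendritic cell libraries, and all 6 were called higher, among them Adipoq with 25.9 and 26.3 CPM against 0.633 to 2.303 CPM (log2 difference 4.11 ± 0.42, adjusted p = 2.72e-05). Mast cell markers summed to 58.2 to 164 CPM against 0 to 10.6 CPM, with 4 of 4 tested markers higher. Cma1, a mast cell chymase, had 61.7 and 20.7 CPM against 0 to 2.7 CPM (log2 difference 5.71 ± 1.14, adjusted p = 0.0025), but DESeq2's Wald test did not call it (adjusted p = 0.119). Its fitted difference was 9.33 without CD103+ replicate 1 and 8.57 without CD103- replicate 2. In both of those fits the population that lost a library had no count left. Fibroblast markers summed to 1170 to 1598 CPM against 356 to 910 CPM, with 3 of 6 higher. Luminal epithelial markers summed to 851 to 2053 CPM against 389 to 1301 CPM, with 2 of 6 tested higher and the milk protein genes Wap and Csn2 at 0 in the stromal libraries. Csn3, which encodes the milk protein kappa-casein, had 127 and 384 CPM in the stromal libraries and 50.3 to 145 CPM in the dendritic cell libraries (log2 difference 1.69 ± 0.64, adjusted p = 0.0544).

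Endothelial markers were the reverse, at 34.9 to 139 CPM against 103.03 to 410 CPM with 2 of 6 lower. B cell markers, of which 3 of 5 were lower, reached 280 CPM in CD103- replicate 2, against 5.44 to 34.5 CPM in the other dendritic cell libraries and 6.95 to 7.85 CPM in the stromal libraries. Plasmacytoid dendritic cell markers summed to 506 to 625 CPM against 196 to 275 CPM, with 3 of 5 higher (Siglech, Bst2 and Tcf4) and Ccr9 and Ly6d not called. The same markers summed to 625 and 725 CPM in the ductal macrophages, where Siglech had 219 and 190 CPM. Monocyte markers summed to 360 to 365 CPM against 298 to 799 CPM, with 1 of 4 tested higher and 3 lower. Basal epithelial markers (125 to 196 CPM against 67.5 to 366 CPM) gave no call. The summed markers of T cells (2 of 6 lower), natural killer cells (1 of 6 lower), neutrophils (1 of 1 tested higher), eosinophils (1 of 2 tested lower) and erythroid cells (no call) were at most 60.5 CPM in each of the 6 libraries, with Cd3e, Cd3g, Prf1, S100a9 and Ly6g at 0 in the stromal libraries. The part of these cells in the differences of the gene lists was not tested. Of the genes named above, Igf1, Timp2, Gas6 and Pltp are also known from fibroblasts or adipocytes.

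The dendritic cell populations, weighted equally above, were also compared with each other. Between the CD103+ and the CD103- libraries 5 of 15681 genes were called (0.0319%), all of them higher in CD103+ cells. In the same test 675 and 325 genes passed an unadjusted p of 0.05 in either direction, and the count of 5 became 2 to 18 when 1 library was left out (18 without CD103+ replicate 1 or CD103- replicate 1). It was 0 in edgeR's fit of the 6 libraries alone (728 genes at an unadjusted p under 0.05), 150 without the filter on low counts, 151 in DESeq2's Wald test and 4 in limma voom. Against CD103+ cells alone 2514 genes were higher and 2749 lower in stromal macrophages, and against CD103- cells alone 2658 and 2884; both comparisons share the stromal libraries. For Mmp12, a macrophage elastase, the direction depended on the population: it had 13.9 and 6.58 CPM in the stromal libraries, 109 and 74.6 CPM in the CD103+ and 0.414 and 0.0452 CPM in the CD103- libraries. Stromal macrophages thus lay below CD103+ cells (log2 difference -3.16, adjusted p = 0.000572) and above CD103- cells (log2 difference 5.64, adjusted p = 0.000128), and the weighted comparison did not call it (log2 difference 1.24 ± 0.48, adjusted p = 0.0617). With the 4 dendritic cell libraries as 1 group its log2 difference was -2.17 (adjusted p = 0.319). The other 4 genes were Mgl2, Itgae, Ms4a6d and Clec4n. Clec4n, the lectin Dectin-2, had 37.5 and 17.2 CPM in the stromal libraries, 20.4 and 9.82 CPM in the CD103+ and 0.6904 and 1.09 CPM in the CD103- libraries, so the stromal libraries overlapped the CD103+ but not the CD103- libraries.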

How the data were processed

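RNA of freshly sorted cells was made into TruSeq libraries, per the labels' protocols. The deposited values are whole-number counts per gene, which the authors made with featureCounts on mm10, per the submitters' processing notes; the aligner and the strand setting were not given in those sources. Of 27179 genes in the table of counts, 25275 IDs were named from RefSeq and 17 from GENCODE, and 1887 had no name. The 10 tables of single samples held the same counts.

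Genes were kept by edgeR's filterByExpr (minimum count 10, minimum total 15), leaving 15681. The quasi-likelihood test of edgeR 4.0.16 (R 4.3.3, TMM scaling) was fitted to all 10 libraries, 2 per population, with 5 residual degrees of freedom, and the stromal level was set against the mean of both CD11b- populations. CPM relate a count to the library's total over tested genes times its TMM factor; a dispersion of 0.333 (coefficient of variation) and the 2 libraries per group limit the precision. P-values measure the spread between these samples, whose source animals are not stated. Intervals of count ratios (95%) cover counting error only. Alternatives included DESeq2 1.42.0 and limma voom 3.58.1.

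The gene lists and members were chosen with earlier results of these data known. Genes were named by rule: the 15 largest differences per direction among called genes of at least 30 CPM without overlap, the 4 largest called members of each list, sort markers and cell type markers; some of these are not reported here. Named outside the rule, after their values were seen, were Ifnb1, Tfec, Tlr12, Tlr4, Mmp12, Ms4a6d, Clec4n, Stat2, Nr4a1, Marcksl1, Cd14, Spi1, Psap, Timd4, Lyve1, Mrc1, Cd74, Ciita, H2-Eb1, H2-Eb2, H2-DMb1, H2-K1, Isg15, Ifit1, Rsad2, Cxcl10, Ccl2, Ccl7, Cxcl9, Cxcl16, Il10, Tnf, Cd80, Cd86, Cd274, Pdcd1lg2, Vsig4, Ftl1, Fth1, Abca1, Jun, Mmp13, Timp2, Ms4a7, Siglecg, Ms4a4a, Ms4a8a, Septin6, Septin8, Slamf7, Cd84, Slfn1 and Slfn4, and list members given without levels. Coordinates and promoter stretches are from RefSeq (GRCm38.p6, the build of mm10). Overlapping and antisense genes cannot be told apart without strand.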

Additional observations from a re-analysis of the deposited data

Results flagged for a closer look

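The stromal difference was not the same against the CD103+ and the CD103- dendritic cells in 5 genes by edgeR's quasi-likelihood test of the difference itself. A fit of the 6 libraries alone called 0 (728 at an unadjusted p under 0.05), limma voom 4, and DESeq2's Wald test 151. In each of the 5 the level was higher in CD103+ cells. For Mmp12 the log2 differences of stromal macrophages were -3.16 against CD103+ and 5.64 against CD103- cells, a gap of 8.80 ± 0.70 (SE, adjusted p = 0.00126). For Mgl2 they were 4.84 and 8.58, a gap of 3.75 ± 0.32 (adjusted p = 0.00128). For Itgae, the gene of the sort, they were -14.29 and -9.63, a gap of 4.66 ± 0.53 (adjusted p = 0.0287). Itgae had no stromal count, so the size of both log2 differences was set by the fit and only the gap rests on counts. For Ms4a6d they were 3.78 and 6.15, a gap of 2.37 ± 0.31 (adjusted p = 0.0376). For Clec4n they were 0.85 (adjusted p = 0.146) and 4.90, a gap of 4.04 ± 0.53 (adjusted p = 0.0376). Both CD103+ libraries lay above both CD103- libraries in all 5 genes. Both contrasts of a gene share the stromal libraries.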

How the results depend on the processing

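Of the genes called higher or lower in stromal macrophages none was called in the opposite direction in any of the 21 alternatives. The 115 genes chosen by the size of their difference or as sort markers kept their direction and their side of the threshold in all 2411 pairs of gene and alternative (the mitochondrial genes have no value where that genome was left out). Most of them were picked as large called differences of the same libraries, so this is no independent check. Of 1323 pairs of 63 other named genes 1291 kept direction and side. Against a threshold of 2-fold (edgeR glmTreat) 1330 genes were higher and 1446 lower, 744 and 1009 against both populations singly, and 2 differed between CD103+ and CD103- cells, since that test asks for more; most lists then held fewer calls. Leaving out 1 library gave 2257 to 3121 genes higher, 2546 to 2983 lower, 1182 to 1973 higher and 1428 to 2183 lower against both populations singly, and 2 to 18 that differed between CD103+ and CD103- cells. That last count was 150 without the filter on low counts, 151 in DESeq2's Wald test, 4 in limma voom and 0 in the fit of 6 libraries; the cause was not tested. The median over all genes moved by -0.106 without stromal replicate 1 and by at most 0.081 in size elsewhere, and higher genes made up 44.6% to 52.0% of the calls.

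With the replicate number as a block 3025 genes were higher and 2953 lower, 1716 and 1912 against both populations singly, and 3 differed between CD103+ and CD103- cells. Deviations of stromal and CD103+ libraries of one number correlated at -0.161, of stromal and CD103- libraries at -0.151 and of both dendritic cell populations at 0.177; over all 10 pairs of populations the correlations ran from -0.176 to 0.177, and the numbers were not taken to pair the libraries.

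Cd14 was not called in any alternative; its log2 difference was -0.018 with DESeq2's size factors and in its Wald test, -0.041 in the fit of 6 libraries, -0.042 with the dendritic cells as 1 group and -0.177 to 0.329 with 1 library left out. Spi1 ranged from -0.014 to 0.325 with 1 library left out. Mmp12 was -2.17 with the dendritic cells as 1 group, and it passed the threshold as higher without the filter, in DESeq2, with the block and without CD103- replicate 1 or stromal replicate 2 (1.18 to 2.204). Timd4 (adjusted p = 0.122) and Clec4n (0.133) lost their call with the dendritic cells as 1 group, and Cpa3 in DESeq2 (0.101) and without stromal replicate 1 (0.0606), and its log2 difference was 8.48 without CD103+ replicate 1. That last fit left Cpa3 without a count in CD103+ cells. The 2-fold threshold also left Stat2, Jun, Timd4, Batf3, Nr4a1, Cd86 and H2-K1 uncalled.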

Other observations

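Gene families outside the lists were counted too, chosen after results of these data were seen, beside the 21% of all genes higher and 20.3% lower. Of 11 tested genes of the MS4A family of membrane proteins, 9 were higher and 1 lower (median 4.85). Ms4a7 had 335 and 191 CPM in the stromal libraries and 0.207 to 0.9898 CPM in the dendritic cell libraries (log2 difference 8.67 ± 0.41, adjusted p = 2.08e-07), Ms4a4a 505 and 271 CPM against 0.9898 to 2.17 CPM (log2 difference 7.90 ± 0.34, adjusted p = 1.09e-07) and Ms4a8a 72.1 and 62.4 CPM against 0.633 to 1.82 CPM (log2 difference 5.77 ± 0.33, adjusted p = 5.95e-07). Of 8 Schlafen genes, interferon-inducible regulators of growth, 6 were higher and 1 lower, with Slfn1 at 103.44 and 99.9 CPM against 1.105 to 3.17 CPM (log2 difference 5.35 ± 0.33, adjusted p = 9.71e-07) and Slfn4 at 36.3 and 53.2 CPM against 1.73 to 4.21 CPM (log2 difference 4.07 ± 0.40, adjusted p = 2.08e-05). Of 7 sialic acid receptors of the Siglec family, 4 were higher and 2 lower. Siglech, a marker of plasmacytoid dendritic cells, was higher, with 104 and 36.9 CPM against 1.67 to 8.47 CPM (log2 difference 4.24 ± 0.38, adjusted p = 1.09e-05), and Siglecg was lower, with 0.1104 and 1.39 CPM against 52.5 to 78.6 CPM (log2 difference -6.48 ± 0.68, adjusted p = 3.28e-05).

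Of 9 genes of the SLAM family, 4 were lower and 2 higher: Slamf7 had 54.8 and 15.6 CPM against 278 to 493 CPM (log2 difference -3.37 ± 0.50, adjusted p = 0.000348) and Cd84 154 and 73.9 CPM against 7.32 to 24.98 CPM (log2 difference 3.01 ± 0.32, adjusted p = 3.5e-05). Septins split as well, 5 of 11 higher and 4 lower, with Septin6 at 9.33 and 3.46 CPM against 159.6 to 268 CPM (log2 difference -5.17 ± 0.45, adjusted p = 8.76e-06) and Septin8 at 68.1 and 60.8 CPM against 6.51 to 9.11 CPM (log2 difference 3.02 ± 0.22, adjusted p = 2.84e-06). Beside the mitochondrial genome, of whose genes all 13 were higher, 28 of 79 nuclear genes of the respiratory chain were higher, none was lower and 51 were not called (median 0.53). Of 84 ribosomal protein genes, 66 were not called, 4 were higher and 14 lower (median -0.23). Long noncoding RNAs gave 100 higher and 120 lower of 640 tested, and protein-coding genes 3077 higher and 2892 lower of 14076.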
